A study of Mus musculus with 15 samples.

Results

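The arrays described here are the 5 of 15 that hold whole blood of mice given vehicle, chosen by the sample titles alone and not by any measured value. The other 10 arrays hold blood of mice given ABBV-075 at 1 mg/kg (5 mice) or 5 mg/kg (5 mice). ABBV-075 (mivebresib) blocks the bromodomains by which BET proteins hold acetylated chromatin. Blood of every group was collected 6 h after dosing, with 1 mouse per array. Strain, sex, age and the vehicle's composition are not given in the sources used here, and no untreated group without vehicle is among the samples. Total RNA was read on an Affymetrix mouse 3′ expression array, so a gene's level is the brightness of its probe set (a group of short probes against the 3′ end of its transcript) on a log2 scale. A floor of 16 was set for dim values, which is 4.00 in log2, and 18193 genes had a probe set of their own.

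Whole blood is a mixed tissue. Mature red cells carry no nucleus, and the reticulocytes that precede them keep the messages for haem and globin for a short time after enucleation. Platelets likewise carry messages handed down from megakaryocytes, while monocytes, neutrophils and lymphocytes transcribe their own. Hepatocytes make most plasma proteins, and their messages are not products of blood cells.

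Of the 18193 genes, 8706 (47.9%) lay above the floor on all 5 vehicle arrays and 4437 (24.4%) on none of them. The other genes crossed the floor on 1 to 4 arrays, with 1348, 1056, 1107 and 1539 genes respectively. Among the 8706 genes, the SD over the 5 mice had a median of 0.36 log2 units, with a central range of 0.25 to 0.51 between the quartiles, and it exceeded 1 for 227 genes (2.61%). The 10 pairs of vehicle arrays correlated at 0.863 to 0.933 across these genes, which are not independent replicates. Spread between mice and spread between arrays cannot be told apart with 1 array per mouse. The 18S ribosomal RNA control signal was 12.31, 11.98, 11.11, 10.33 and 10.24 on vehicle replicates 1 to 5, against 8.83 to 10.70 on the treated arrays. The 3′ minus 5′ difference of the Actb controls, a sign of RNA integrity, lay between 0.51 and 0.98 on the vehicle arrays. On the treated arrays it lay between 0.39 and 1.12, with 1 mg/kg replicate 1 the highest. The part of either measure in the results below was not tested, beyond the values given without the arrays concerned.

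**Figure D1:**
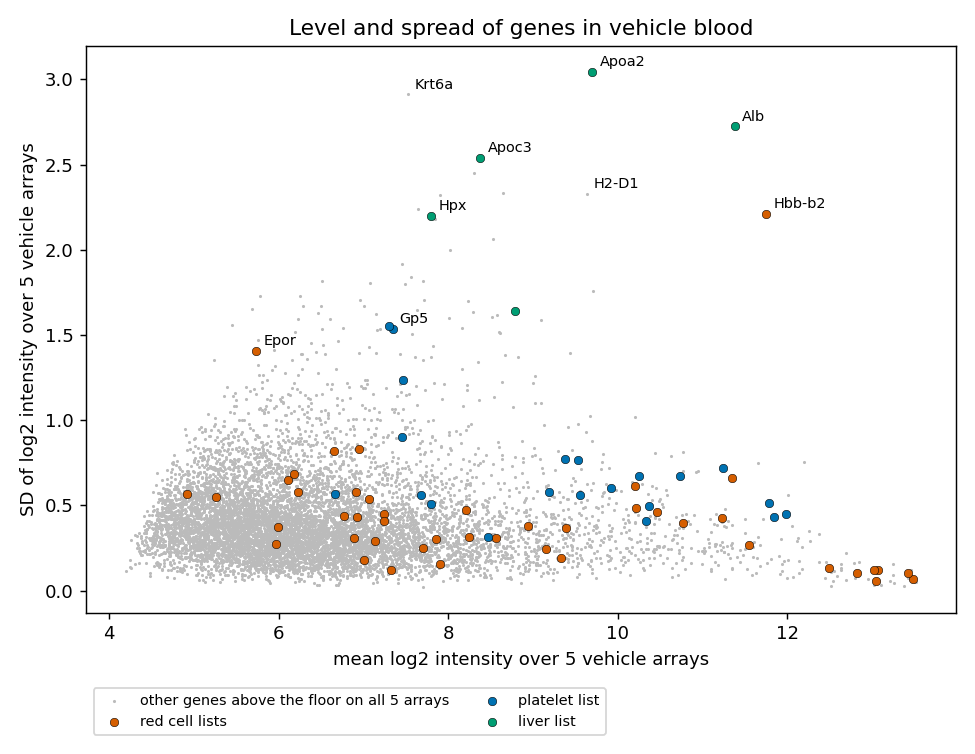
Mean log2 intensity (horizontal) against SD (vertical) over the 5 vehicle arrays, 1 point per gene above the floor on all 5 arrays, with members of the red cell, platelet and liver lists coloured. The brightest red cell genes lie at the lower right with SDs near 0.1, while the liver genes Apoa2 (SD 3.05) and Alb (SD 2.73) are the highest coloured points.

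Genes of haem synthesis and of the translation machinery were among the first in the ranking by mean level. The rank orders probe set brightness, which also depends on the probes, so it is not an order of transcript numbers. The first 5 genes were Tpt1 (translationally controlled tumour protein, 13.52), Slc25a39 (a mitochondrial carrier, 13.50), Alas2 (13.48), the ribosomal protein gene Rps29 (13.45) and Fech (13.42). Of the 30 brightest genes, 8 were on the lists for haem synthesis, red cell membrane, reticulocyte maturation, or iron and antioxidant defence. These 4 lists held 15, 18, 16 and 10 of the 18193 genes, and being on a list does not give the cell of origin. A further 3, of 49 measured, encoded cytosolic ribosomal proteins (Rps29, Rplp0 and Rpl38). The housekeeping list gave 4 of its 14 measured genes (Tpt1, Tmsb4x, Eef1a1 and Actb). The remaining names were Pabpc1, Mkrn1, Oaz1, Sh3glb1, Marchf2, Cd24a, Ybx3, Isg20, Rsad2, Fam220a, Ncoa4, Ppp1cb, Adipor1 and Gda, together with Slc25a39. Ncoa4 is the receptor that delivers ferritin for degradation, and Pabpc1 binds the poly(A) tails of messages. The rank ended with no visible step, since the gene at rank 30 (Gda) had a mean of 12.52 and the next one 12.51.

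The brightest genes were also the steadiest. Their SDs ran from 0.028 to 0.219 with a median of 0.088, against 0.36 for all genes above the floor. Quantile normalisation gives every array the same set of highest values, and its part in these low SDs was not tested. No gene was among both the 50 brightest and the 50 most variable. Of the 50 brightest genes, 45 were also among the 50 brightest at 1 mg/kg and 45 among those at 5 mg/kg.

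The haem pathway was bright at its entry and exit steps. Alas2, the erythroid enzyme of the first step, read 13.57, 13.49, 13.41, 13.49 and 13.43 on vehicle replicates 1 to 5. Fech, which inserts iron into the ring, read 13.43, 13.31, 13.46, 13.35 and 13.57. Slc25a37 (mitoferrin, 13.07 ± 0.12, SD, n = 5) and Bpgm, which makes the regulator of oxygen affinity (13.02 ± 0.12), were as steady. The enzymes between these steps were dimmer: Urod averaged 9.39 ± 0.37, Ppox 7.07 ± 0.54, Alad 6.18 ± 0.68, Cpox 6.11 ± 0.65 and Uros 6.08 ± 1.19. Of the list's 15 measured genes, 13 were above the floor on all 5 arrays and none was at the floor on all 5.

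The bases before the Alas2 start are shown because this gene ranked 3 by mean and carries the AGATAA word that GATA factors bind. The sequence is from RefSeq (GRCm38.p6, chrX:150547167-150547416, plus strand), runs from 250 bases before the start to the base before it, and has the word in capitals as read on the other strand (TTATCT), beginning 86 bases before the start.

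Alas2: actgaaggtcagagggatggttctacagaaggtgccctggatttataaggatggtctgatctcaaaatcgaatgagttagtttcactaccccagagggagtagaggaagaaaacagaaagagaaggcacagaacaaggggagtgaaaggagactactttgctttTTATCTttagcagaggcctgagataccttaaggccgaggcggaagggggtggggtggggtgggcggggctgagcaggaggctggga

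AGATAA, searched on both strands, occurred in 8 of the 38 windows held for genes of the haem, red cell membrane and reticulocyte lists (21.05%) and in 7.466% of the 14452 windows of measured genes. Among the 30 brightest genes it occurred in 1 of 23 windows (4.348%). A match describes the letters and is not evidence of binding.

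Globin genes did not read as the most abundant transcripts on these arrays. Hbb-b2, an adult beta globin, read 12.66 to 12.88 on replicates 2 to 5 but 7.79 on replicate 1. The adult alpha globins Hba-a2 and Hba-a1 averaged 7.32 ± 0.12 and 6.65 ± 0.82. Hba-x, the embryonic zeta-type alpha globin, was higher and steady at 9.96 ± 0.13, whereas Hbb-bh1 averaged 5.20 ± 0.52 and Hbb-y was above the floor on only 3 arrays. These levels are bounded by the naming rule: 4 probe sets annotated to several genes including an alpha or beta globin were left out, and near-identical globin copies share probes. Levels of different globins cannot be ranked from their probe sets.

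Red cell membrane genes were present at middle to high brightness. Slc4a1, the band 3 anion exchanger, averaged 11.55 ± 0.27, followed by Cd47 (9.15 ± 0.25), Stom (8.94 ± 0.38), Dmtn (8.56 ± 0.31) and Aqp1 (8.21 ± 0.47). Of 18 measured genes, 16 were above the floor on all 5 arrays, and Ermap (2 arrays) and Xk (1 array) were the exceptions. Reticulocyte maturation genes were brighter, with all 16 measured above the floor on every array and a median of 9.77, the 98.2nd percentile of all genes. They included Tent5c (13.05), the iron-sulphur assembly gene Isca1 (12.82), the autophagy gene Map1lc3b (12.49) and the ubiquitin enzymes Ube2l6 (11.35) and Ube2h (11.23). The erythroid factors Gata1 (8.25 ± 0.32), Nfe2 (7.90 ± 0.16), Tal1 (6.91 ± 0.58) and Klf1 (6.93 ± 0.43) were above the floor on all arrays. Epor, the erythropoietin receptor, was the most variable of the list at 7.98, 4.77, 6.28, 4.77 and 4.87. All 10 iron and antioxidant genes were above the floor on all arrays, led by Fth1 (13.24), Gpx1 (12.55) and Prdx2 (12.45).

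Platelet genes formed the other bright programme, and they were lower on a single array. Of 22 measured genes, 21 were above the floor on all 5 arrays, and the list median was 9.46. The chemokine genes Pf4 and Ppbp averaged 11.99 ± 0.45 and 11.85 ± 0.43, followed by Gng11 (11.78 ± 0.51), the podoplanin receptor Clec1b (11.24 ± 0.72) and Nrgn (10.73 ± 0.67). The list mean was 8.16 on vehicle replicate 1 and 9.19, 9.39, 9.49 and 9.63 on replicates 2 to 5. All 21 genes above the floor on every array were lowest on replicate 1, whereas 26.6% of all such genes were. That array was also the lowest for 10 of 16 B cell genes, 7 of 11 NK and cytotoxic genes, 8 of 14 mature neutrophil genes and 8 of 14 housekeeping genes. All 5 liver list genes above the floor throughout were highest on it. The von Willebrand receptor subunit gene Gp5 read 4.62 on replicate 1 and 7.80 to 8.32 on the others, and Treml1 read 4.64 against 7.32 to 8.55. Itgb3 read 5.52 there and 6.96 to 8.44 elsewhere, and Pf4 11.22 against 12.06 to 12.35. The treated arrays held list means of 8.62 to 8.94 at 1 mg/kg and 8.68 to 9.16 at 5 mg/kg, so all 10 lay above replicate 1 and below vehicle replicates 2 to 5. In blood taken whole, fewer cells of a type and less RNA per cell cannot be told apart. Replicate 1 also had the highest 18S signal, and its part in these values was not tested.

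**Figure D2:**
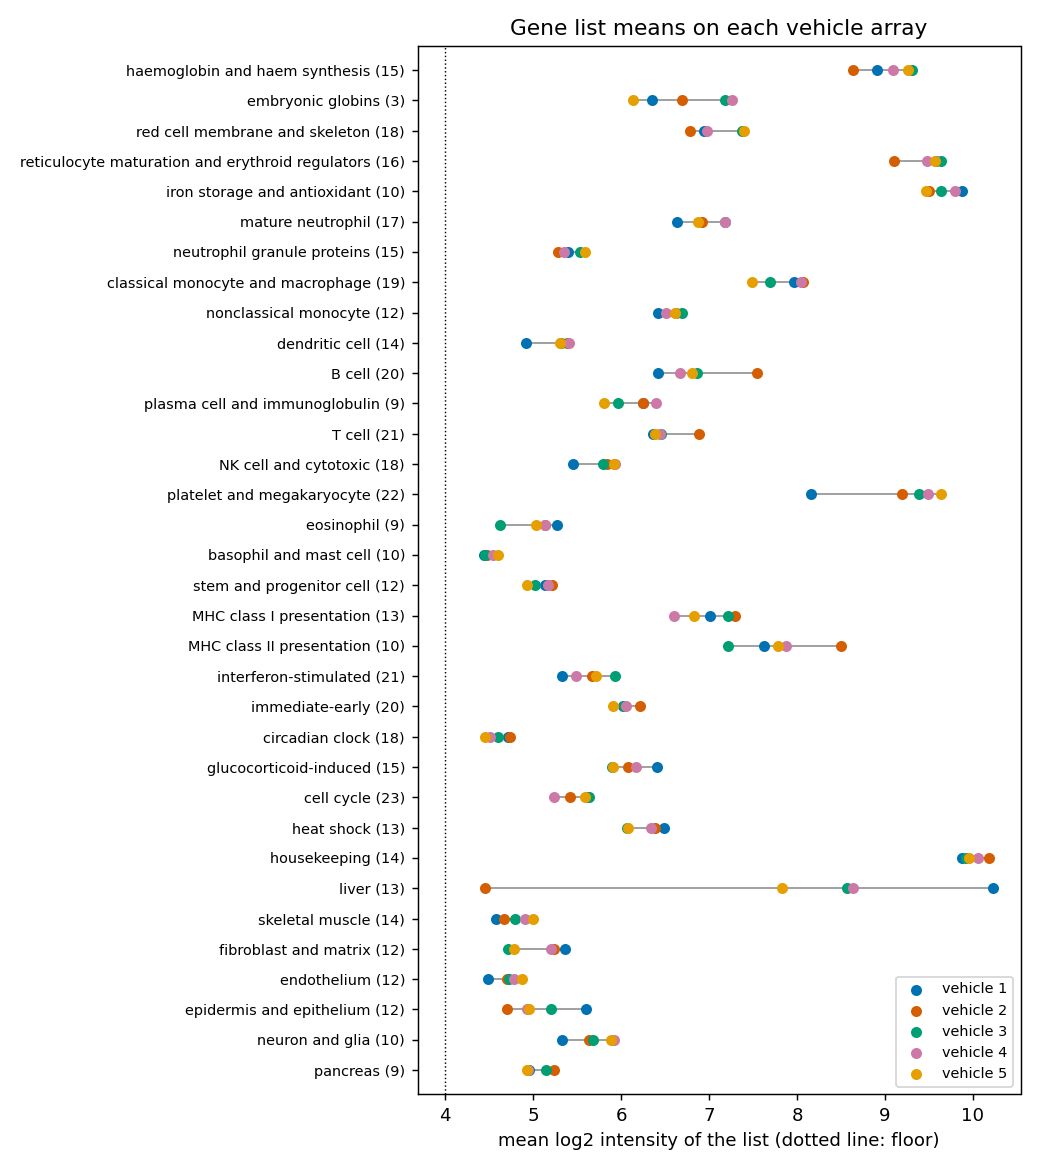
Mean log2 intensity of each gene list (1 row per list, number of measured genes in brackets) on the 5 vehicle arrays, 1 coloured point per array, with the floor as a dotted line. The liver list spans 4.45 to 10.23 and the platelet list 8.16 to 9.63, while no other list spans more than 1.28 log2 units.

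Monocyte genes were the brightest of the leucocyte programmes. Of 19 classical monocyte and macrophage genes, 17 were above the floor on all 5 arrays, with a median of 7.91. Lysozyme (Lyz2) read 12.49, 12.59, 11.86, 12.45 and 11.89, and was followed by the cathepsin Ctss (9.92 ± 0.32), the signalling adaptor Tyrobp (9.87 ± 0.21), Ifi30 (9.44 ± 0.32) and Fcer1g (9.14 ± 0.28). The spread was wider for Fn1 (fibronectin, 9.31 on replicate 1 and 6.86 to 8.16 elsewhere) and for Csf1r, the macrophage colony-stimulating factor receptor (7.70 to 9.67). Cd14 was at the floor on replicate 3 and read 4.38 to 6.82 elsewhere. Nonclassical monocyte genes were present too, with 10 of 12 above the floor on all arrays, among them Nr4a1 (8.41 ± 0.49), Treml4 (6.84 ± 0.36) and Fcgr4 (6.48 ± 0.38).

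Mature neutrophil genes were above the floor on all arrays more often (82.4%) than genes of the granule protein list (60%). The alarmin genes S100a8 and S100a9 averaged 10.30 ± 0.23 and 10.26 ± 0.33, and 14 of 17 mature neutrophil genes were above the floor on all arrays. Among 15 genes on the granule list, not all of which encode granule proteins, 9 were above it on all arrays. They were led by Chil3 (8.44 ± 0.80), Ngp (7.03 ± 0.25) and Ms4a3 (6.70 ± 0.17). Elane, Camp and Cd177, which encode a primary granule protease, the cathelicidin and a neutrophil surface protein, were at the floor on all 5 arrays. Granule proteins are made mainly by marrow precursors. The chemokine receptor gene Cxcr2 was at the floor on 2 arrays and read 5.48 to 6.47 on the other 3.

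B cell and MHC class II genes stood highest on a single array. Among B cell genes, 16 of 20 were above the floor on all arrays, led by Ighm (9.40 ± 0.54), Ms4a1 (CD20, 8.87 ± 0.69) and the receptor component Cd79a (8.46 ± 0.52). Ms4a1 read 8.39, 10.05, 8.93, 8.45 and 8.55 on replicates 1 to 5, with replicate 2 apart. Of the 16 genes, 13 were highest on replicate 2, as were 8 of 9 class II genes and 10 of 16 T cell genes, against 24.6% of all genes above the floor on every array. The B cell list mean was 7.54 on replicate 2 and 6.42 to 6.86 on the others, and the class II list mean was 8.50 there and 7.21 to 7.87 elsewhere. The housekeeping list was also highest on that array, at 10.18 against 9.87 to 10.05, with 8 of 14 genes. On replicate 3, where the class II list mean was lowest (7.21), the class II chain genes H2-Eb1 and H2-Ea read 6.88 and 4.14, against 9.03 to 9.72 and 8.12 to 9.82 on the others. H2-Aa read 10.30 and Cd74 10.78 on the same array, both within the range of the other arrays.

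T cell genes were close to B cell genes in brightness, with list medians of 7.06 and 6.93, and the NK and cytotoxic list was dimmer at 5.25. Of 21 T cell genes, 16 were above the floor on all arrays, led by the kinase gene Zap70 (9.48 ± 0.17) and the receptor chain gene Cd3d (7.90 ± 0.50). Cd3e averaged 7.60 ± 0.21 and Cd8a 7.27 ± 0.63. Cd4 was at the floor on all 15 arrays in its probe set and on all 5 vehicle arrays in its other one, with deposited intensities of −228 to −45.5 on the vehicle arrays, so these probes give no level for it. Of 18 NK and cytotoxic genes, 11 were above the floor on all arrays, led by Gzma (9.25 ± 0.55) and Ccl5 (8.78 ± 0.78). Plasma cell genes included Xbp1 (9.05 ± 0.19) and Mzb1 (8.29 ± 0.51), while Igha ran from 5.05 to 8.08 and Tnfrsf17 was at the floor on all arrays.

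Eosinophil (5 of 9, 55.6%) and basophil and mast cell genes (5 of 10, 50%) were at the floor on all arrays more often than genes in general (24.4%). Progenitor (4 of 12, 33.3%) and dendritic cell genes (3 of 14, 21.4%) lay nearer that share. Of 9 eosinophil genes, Epx, Siglecf, Ccr3, Prg3 and Il5ra were at the floor on all arrays. The eosinophil-associated ribonuclease gene Ear3, which was not on that list, was above it on all 5 at 6.82 to 7.64. The brightest genes of the eosinophil list were Adgre4 (7.38 ± 0.12), Alox15 (7.16 ± 1.53) and Ltc4s (6.71 ± 0.79), and these are not restricted to eosinophils. Among basophil and mast cell genes, 5 of 10 were at the floor on all arrays, including Mcpt8 and Fcer1a. The progenitor genes Kit, Flt3, Gfi1b and Procr were at the floor on all arrays, whereas Runx1 (9.02 ± 0.38) and Mecom (8.25 ± 0.62) were not. Of 14 dendritic cell genes, 6 were above the floor on all 5 arrays, while Xcr1, Flt3 and Bst2 were at the floor on all arrays. Zbtb46 (7.59 ± 0.41) was the brightest, and the list median of 5.34 was close to that of the NK and cytotoxic list (5.25).

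State-dependent programmes were of middle level without drug, with single bright members. The medians of the interferon, immediate-early, glucocorticoid and heat shock lists lay at the 59.6th to 78.0th percentile of all genes by mean, and that of the clock list at the 36.6th. Rsad2, an antiviral enzyme induced by interferon, was among the 30 brightest genes (12.79 ± 0.16, SD, n = 5), although the interferon list had a median of 5.32. Ifit1 averaged 5.05 ± 0.37 and Mx2 was at the floor on all arrays, so Rsad2 went against its list. In the cell cycle list, with a median of 5.08, the ubiquitin enzyme gene Ube2c stood at 11.28 ± 0.37 while Cdk1, Aurkb and Bub1 were at the floor on all arrays. Jund (11.25 ± 0.23) and Klf2 (8.70 ± 0.34) led the immediate-early genes, and Fosb was at the floor on all arrays. Of 18 clock genes, 7 were at the floor on all arrays, including Clock and Per1, and Bhlhe41 ran from 4.55 to 8.17. Glucocorticoid-induced Tsc22d3 averaged 8.84 ± 0.36, and Fkbp5 crossed the floor on 1 array.

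Families of the basic machinery were above the floor almost throughout. Of 49 cytosolic ribosomal protein genes, 45 (91.8%) were above the floor on all 5 arrays, with a median of 10.86, and 37 were in the top 5% of all genes by mean. The corresponding counts were 36 of 39 proteasome subunits (92.3%, median 6.96) and 67 of 78 respiratory chain subunits (85.9%, median 7.78). Mitochondrial ribosomal proteins were nearly as complete (57 of 75) but dimmer, with a median of 5.85. The ubiquitin-conjugating enzymes had 24 of 31 genes above the floor on all arrays and 11 in the top 5%, led by Ube2r2 (11.60 ± 0.25). The Slc25 mitochondrial carriers had 23 of 44, and their leading members Slc25a39 and Slc25a37 stood far above the family median of 5.37.

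Families of sensory and skin products were at the floor more often than genes in general (24.4%), though not entirely. Of 32 vomeronasal receptors 23 were at the floor on all arrays, as were 19 of 39 olfactory receptors and 20 of 38 keratin-associated proteins. The keratins themselves were less extreme, with 16 of 48 at the floor on all arrays and 18 above it on all 5. Of the 3 receptor families (with taste) and the keratin-associated proteins together, 65 of 115 genes (56.5%) were at the floor on all arrays and 25 (21.7%) were above it on all 5. Olfr159 averaged 8.83 ± 0.33 and Krtap10-4 8.96 ± 0.13, as bright as many leucocyte genes. A steady value above the floor is therefore not by itself a detected transcript, and the floor is not a detection threshold. The kallikrein gene Klk1 (10.12 ± 0.42) was brighter still. Fgf23, a bone hormone gene, was bright but not steady, at 6.66 on replicate 1 and 9.75 to 10.82 on the others. Of 28 interleukin genes, 12 were at the floor on all arrays, and Il16 (7.30 ± 0.31) and Il1b (7.25 ± 0.26) were above it on all 5.

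**Figure D3:**
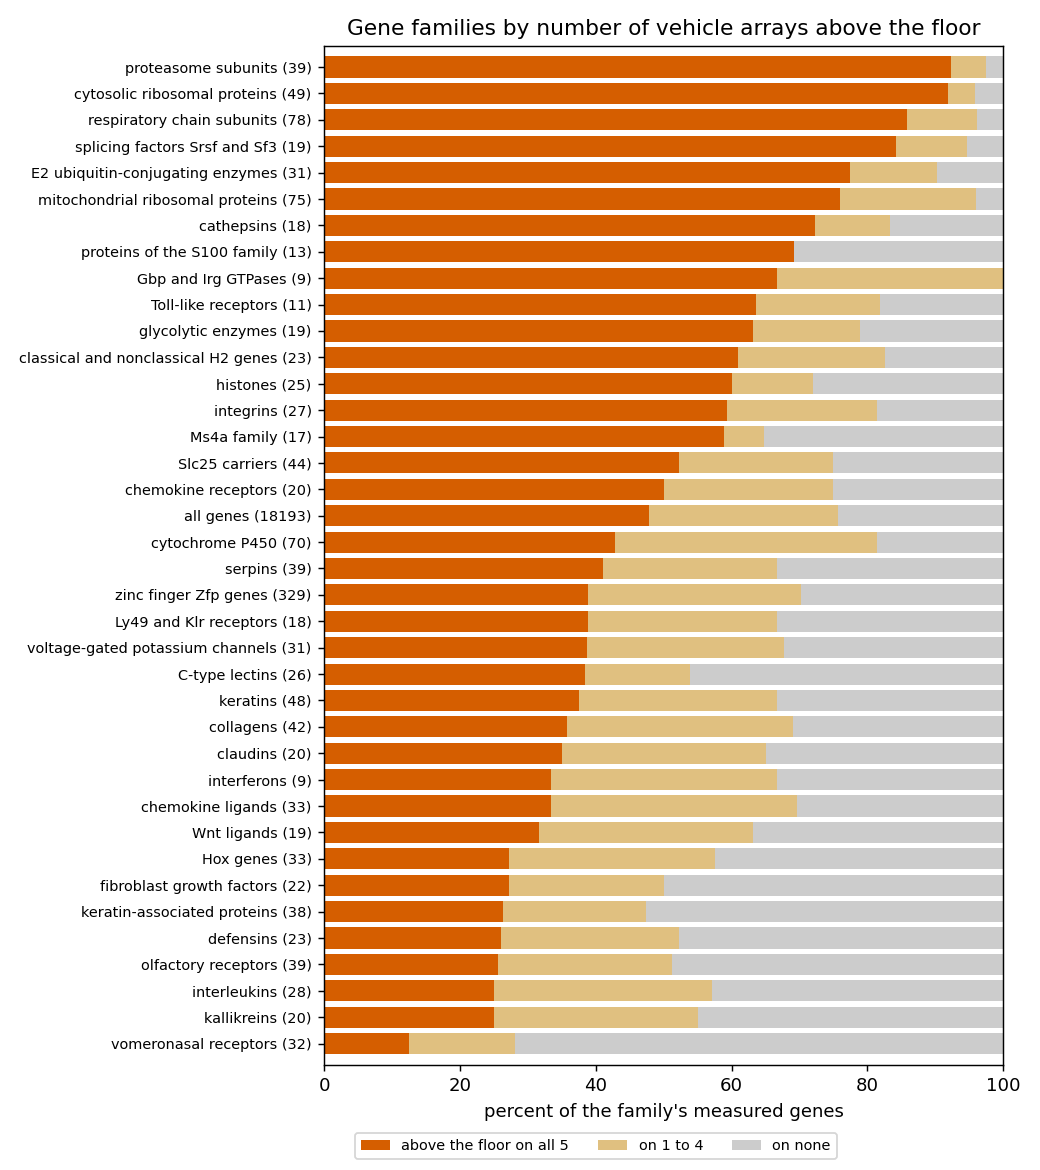
Share of each gene family (number of measured genes in brackets) above the floor on all 5 vehicle arrays, on 1 to 4 and on none, as stacked bars of percent. The 3 smallest families (6, 4 and 1 genes) are not drawn. Proteasome subunits (92.3% on all 5) and cytosolic ribosomal proteins (91.8%) lie at the top of those drawn and vomeronasal receptors (12.5%) at the bottom, with all genes at 47.9%.

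Liver transcripts varied more than any other programme among the vehicle mice. The mean of 13 liver genes was 10.23, 4.45, 8.57, 8.64 and 7.83 on replicates 1 to 5. The number of these genes above the floor was 13, 5, 12, 12 and 13 of 13. Alb (albumin) read 13.31, 6.59, 12.60, 12.56 and 11.82, so it was high on 4 arrays and low on replicate 2. Apoa2 read 12.23, 4.47, 10.99, 10.98 and 9.82, and Apoc3 10.82, 4.11, 9.54, 8.94 and 8.48. Ttr and Apoa1 were at the floor on replicate 2 and reached 12.82 and 11.73 on replicate 1. Replicate 1 was the highest and replicate 2 the lowest for each of these genes. On all 5 arrays together 5 of the 13 genes were above the floor, and without replicate 2 this count was 11.

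This order recurred among the most variable genes. Of the 30 genes with the highest SD among those above the floor on all 5 arrays, 16 (53.3%) were highest on replicate 1 and lowest on replicate 2, against 469 of 8706 genes (5.39%). They included, beside Apoa2, Alb and Apoc3, the iron regulator Hamp (10.33 to 4.05), the haem-binding protein Hpx, retinol carrier Rbp4, antithrombin Serpinc1 and Vtn. Hepatic enzymes were among them as well, namely Cyp3a11 (11.48 to 5.04), Car3, Bhmt, Cyp2f2, Urah and Rdh7, together with metallothionein Mt1 and Oxld1. Among genes above the floor on at least 3 arrays, 32 of the 50 most variable had the same order, and 23 of these 32 were at the floor on replicate 2. The most variable of that wider set was Ttr (SD 3.53), and it held Serpina1c, Apoh, Serpina1b, Ahsg and Apoc1. Cytochrome P450 genes and serpins, 2 families with many hepatic members, had median SDs of 0.57 and 0.78, against 0.36 for all genes above the floor. Families without a hepatic character came near the cytochrome value, with 0.63 for 5 kallikreins, 0.58 for 3 interferons and 0.56 for 14 H2 genes.

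Low liver signal was not limited to vehicle. The list mean ran from 6.04 to 11.50 at 1 mg/kg, and 5 mg/kg replicate 5 was at 4.37 while the other 4 arrays of that dose were at 9.14 to 9.43. A total of 33 genes were separated by more than 2 log2 units from the rest on vehicle replicate 2 and 5 mg/kg replicate 5, alone or together with 1 mg/kg replicate 1. Their median was 10.17, 4.00, 8.27, 8.19 and 7.66 on vehicle replicates 1 to 5, and all 33 were highest of the vehicle arrays on replicate 1. These genes were chosen after their values were seen, so the counts describe them only. Other tissue lists did not show this range on the vehicle arrays: skeletal muscle averaged 4.58 to 5.00 and endothelium 4.49 to 4.87. Pancreas averaged 4.93 to 5.24, fibroblast and matrix genes 4.72 to 5.36 and neuron and glia genes 5.333 to 5.922. The epidermis and epithelium list had the liver order over a smaller range. It was highest on vehicle replicate 1 (5.596) and lowest on vehicle replicate 2 (4.706). The muscle genes Myh1, Tnnc2 and Myl1 were at the floor on all vehicle arrays. The source of the liver transcripts was not tested.

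**Figure D4:**
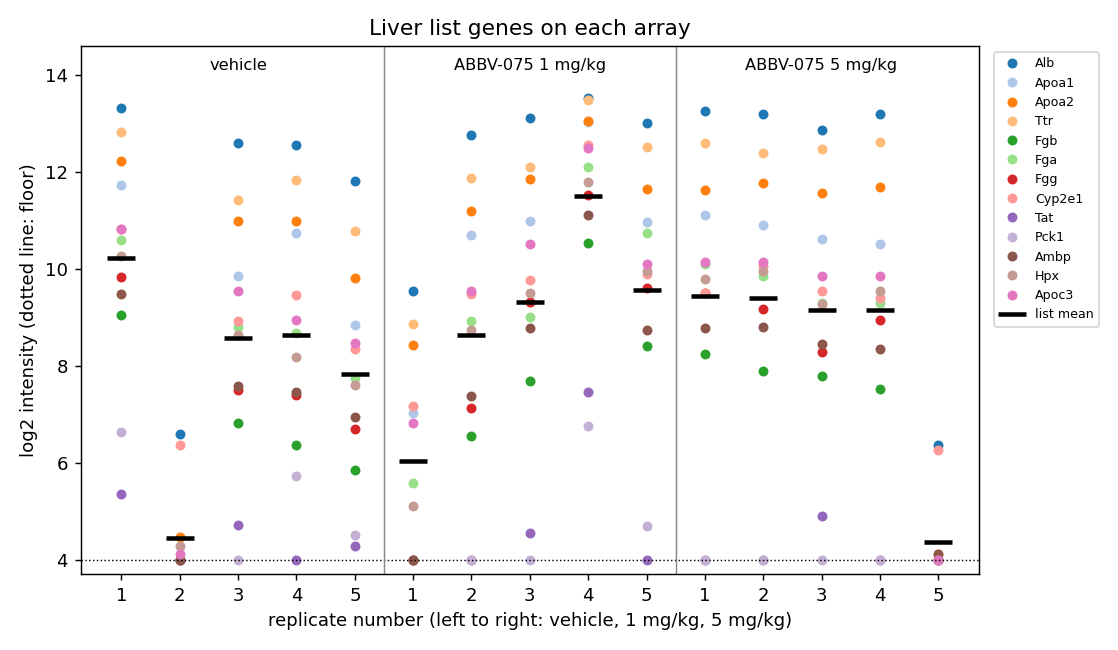
Log2 intensity of 13 liver genes (coloured points) and their mean (black bar) on each of the 15 arrays, by group and replicate number, with the floor as a dotted line. Vehicle replicate 2 (mean 4.45) and 5 mg/kg replicate 5 (4.37) lie near the floor, while vehicle replicate 1 is at 10.23.

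The windows before the starts of Alb and Fgb are shown because both genes were high on replicate 1 and low on replicate 2 and hold GTTAAT, a half-site of the hepatic factor HNF1. They are from RefSeq (GRCm38.p6) and run 5′ to 3′ on the gene's strand up to the base before the start, with the word in capitals. Alb is at chr5:90460620-90460869 on the plus strand, with the word beginning 32 bases before the start. Fgb, a fibrinogen chain gene, is at chr3:83049864-83050113 on the minus strand, with the word as read on the other strand (ATTAAC) beginning 29 bases before the start.

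Alb: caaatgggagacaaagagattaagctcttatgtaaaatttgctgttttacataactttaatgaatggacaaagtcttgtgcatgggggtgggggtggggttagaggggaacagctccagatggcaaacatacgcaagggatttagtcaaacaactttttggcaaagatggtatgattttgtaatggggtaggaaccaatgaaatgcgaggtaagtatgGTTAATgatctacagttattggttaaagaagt

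Fgb: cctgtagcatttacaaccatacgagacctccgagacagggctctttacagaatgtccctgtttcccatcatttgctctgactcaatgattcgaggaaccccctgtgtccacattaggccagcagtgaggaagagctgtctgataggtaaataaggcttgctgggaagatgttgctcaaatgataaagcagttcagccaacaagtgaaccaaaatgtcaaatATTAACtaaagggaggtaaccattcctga

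GTTAAT, searched on both strands, occurred in 4 of 11 liver list windows (36.36%) and 6 of 24 windows of the 33 genes above (25%), against 4.691% of the windows of measured genes. It occurred in none of the 38 red cell windows. The liver list and the 33 genes overlap, since 9 of the 33 are on that list. Hpx and Rbp4 had the same array order as Alb and Fgb, but the window examined for each held no match. Fgb itself read 9.04, 4.00, 6.81, 6.37 and 5.86 on vehicle replicates 1 to 5.

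The other 14 of the 30 did not have the liver order. Krt6a, an epithelial keratin gene, read 10.80 and 10.61 on replicates 1 and 3 and 5.18 to 5.56 on the other 3. H2-D1, a classical MHC class I gene, read 5.65 on replicate 4 and 9.62 to 11.43 elsewhere. Its probe sets disagreed, since another one read 9.45 on replicate 4, 8.16 on replicate 1 and 4.00 on the other 3 arrays. The H2-D1 value therefore depends on which probe set stands for the gene, and averaging its probe sets lowered its SD from 2.33 to 0.34. Serpind1 read 4.41 on replicate 3 and 7.76 to 8.91 elsewhere, and the chemokine gene Ccl9 4.01 against 6.96 to 8.37. Rab3a, Plscr1, Bhlhe41 and Ipo5 were also among the 14. The last of the 30 had an SD of 1.65 and the next gene 1.64.

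Some of these genes took 2 levels over all 15 arrays with nothing between. A gap of more than 2 log2 units separated 2 levels in 218 genes (1.20%), a set chosen after the values were seen, and 101 of them had at least 2 arrays on each side. Vehicle replicate 3 and 5 mg/kg replicate 3 shared such a split in 26 genes, which lay on 14 chromosomes, 21 of them low and 5 high on that pair. Ttll9, a tubulin ligase-like gene, was at 4.00 on this pair and at 10.73 or above on the other 13 arrays. Rps16, Eif3l, Mpv17l, Srrm1 and Krtap3-1 were low on the pair too, and Sae1, Rell2 and Vegfb were high. For 12 of the 26 genes another probe set was above the floor on at least 4 vehicle arrays, and in 0 of these did it follow the split. Eif3l read 4.67 on replicate 3 in the probe set used here and 6.61 in another, which ranged from 6.02 to 6.75.

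Further splits joined vehicle arrays with treated ones. Hbb-b2, Fgf23, Obsl1, Ptges and 2810025M15Rik were low on vehicle replicate 1 and 5 mg/kg replicate 4, where Hbb-b2 read 7.79 and 7.54 against 11.81 or more elsewhere. Krt6a, Slc25a28, Nme4, Lcn8, Tpbgl and Gm33628 were low on vehicle replicates 2, 4 and 5, on 1 mg/kg replicates 3, 4 and 5 and on 5 mg/kg replicate 1. Within vehicle alone, 61 genes had 1 array more than 2 log2 units below the other 4 and 9 genes had 1 array as far above. The low array was replicate 3 for 25 genes, replicate 2 for 19 and replicate 1 for 13. These splits crossed the dose groups, and their source was not tested.

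**Figure D5:**
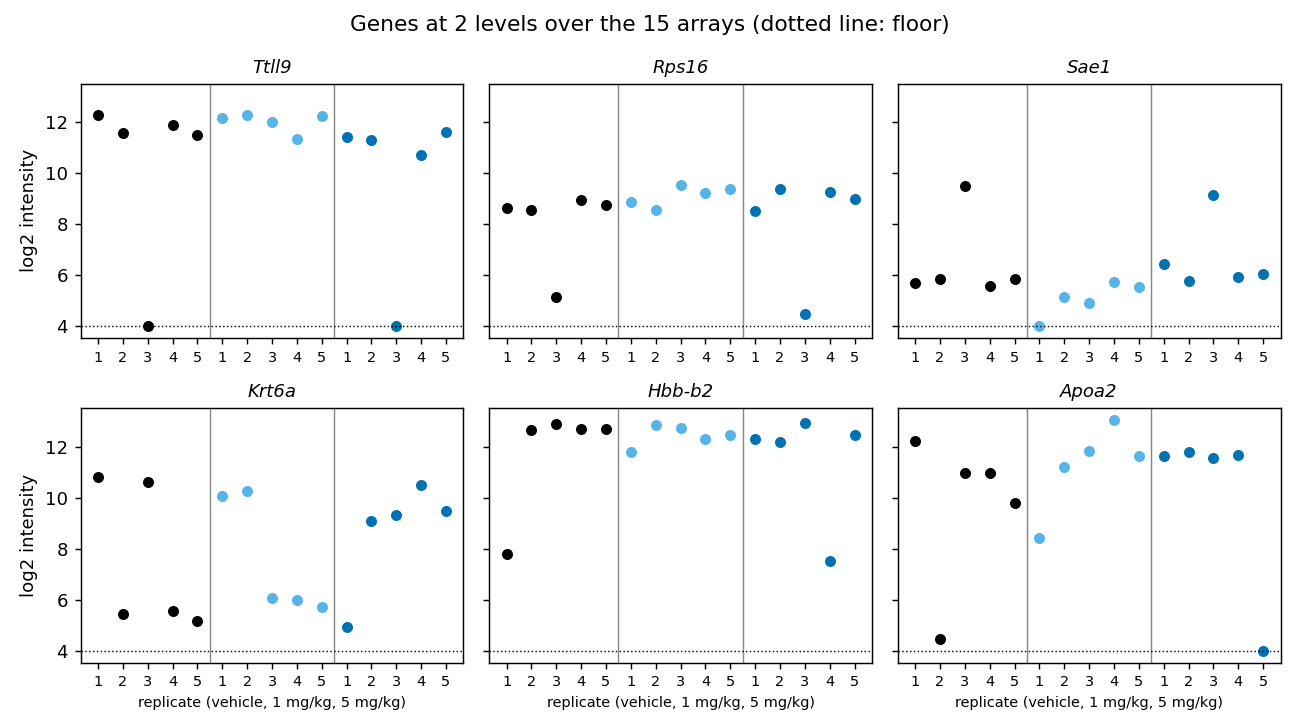
Log2 intensity of 6 genes on each of the 15 arrays (black vehicle, light blue 1 mg/kg, dark blue 5 mg/kg), by replicate number, with the floor as a dotted line. Ttll9, Rps16 and Sae1 set vehicle replicate 3 and 5 mg/kg replicate 3 apart, and Hbb-b2 sets vehicle replicate 1 (7.79) and 5 mg/kg replicate 4 (7.54) apart.

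Genes that varied without drug also varied among treated mice, on arrays that the ranking had not used. Of the 50 genes with the highest vehicle SD, 40 exceeded the floor on each of the 5 arrays at 1 mg/kg, and 28 of them (70%) were in the top 10% by SD there. At 5 mg/kg, 30 of 34 (88.2%) were. Their median SDs were 1.60 and 1.44, against 0.46 and 0.37 for all genes above the floor in vehicle and in that dose. Leaving aside the genes highest on replicate 1 and lowest on replicate 2, 9 of 20 and 17 of 21 were in the top 10%. At 1 mg/kg the count of 28 rested on few arrays: it was 17 with the 50 genes chosen without vehicle replicate 2, and 12 without replicates 1 and 2, the arrays of highest 18S signal.

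The comparison with the treated arrays asks which baseline genes differ from dosed mice, and few genes passed it. With limma over 12499 genes, 1 gene (0.008%) passed an adjusted p of 0.05 between vehicle and 1 mg/kg. An unadjusted p under 0.05 was reached by 754 genes (6.03%) in that comparison and by 972 (7.78%) between vehicle and 5 mg/kg. Against 5 mg/kg 11 genes (0.088%) passed the adjusted p, 8 higher (0.064%) and 3 lower (0.024%) in vehicle. None of the 30 brightest genes was among them, with 0 of 30 at an unadjusted p under 0.05 in either comparison and smallest limma adjusted p values of 0.835 and 0.767. None of the 30 most variable genes was among them either, with 1 and 3 of 30 at an unadjusted p under 0.05 and smallest limma adjusted p values of 0.659 and 0.461. The 30 most variable genes were ranked by SD over vehicle arrays that also enter the fit, so their choice itself made a miss likely. These misses do not show that the levels were alike. For Alb the estimate was −1.01 ± 1.40 (vehicle minus 1 mg/kg, log2, SE, n = 5 per group), with an SE larger than the estimate.

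The 11 genes are named here after their values were seen, and those on a list or family are described. The others, Sertad1, Dpagt1, Pla2g7 and Ptpro, passed at 5 mg/kg in 25, 23, 22 and 22 of 26 alternatives. Ear3 passed in both comparisons, and Mpeg1, the chemokine receptor gene Ccr1, the lectin gene Clec4a3 and the carrier gene Slc25a24 at 5 mg/kg, all of them higher in vehicle. The histone genes H2ax and H2aw were lower in vehicle than at 5 mg/kg, by 1.46 and 1.26 log2 units (limma adjusted p = 0.00998 and 0.0485). Clec4a3 was 2.25 ± 0.30 higher, Ccr1 2.10 ± 0.35 and Slc25a24 1.16 ± 0.21 (SE; limma adjusted p = 0.0043, 0.0236 and 0.0485). Ear3, the only gene of its family with its own probe set, read 6.82 to 7.64 with vehicle (median 7.53) and 4.00 to 5.82 at 1 mg/kg. With the higher dose no array read above the floor. The limma differences on the floored scale were 2.57 ± 0.34 (SE, n = 5 per group; adjusted p = 0.0171) and 3.32 ± 0.34 (adjusted p = 0.000583). The 1 mg/kg call was lost when vehicle replicate 1, 3 or 4, 1 mg/kg replicate 1, 4 or 5, or the 2 vehicle arrays of highest 18S signal were left out. It was also lost with a floor of 8, a filter of 1 array, the replicate block, unscaled values or array weights. Mpeg1, the macrophage perforin gene, averaged 8.32 ± 0.18 with vehicle and was 2.22 ± 0.31 higher than at 5 mg/kg (limma adjusted p = 0.0043). Leaving out suffixed probe sets removed the one of Ear3, and with it both its calls. Mpeg1 did not pass with unscaled values or when the 2 vehicle arrays with most 18S signal were dropped. Of 26 alternatives, Clec4a3 and H2ax passed at 5 mg/kg in 23, all except unscaled values, median scaling and that pair dropped. The calls of Ccr1 (13 of 26), H2aw (9) and Slc25a24 (8) were less stable. Ccr1 was lost without vehicle replicate 1, 2, 4 or 5 or 5 mg/kg replicate 2, 3, 4 or 5. H2aw was lost on leaving out vehicle replicate 1, 2, 3 or 5, 1 mg/kg replicate 2, 3 or 4, or 5 mg/kg replicate 1, 3, 4 or 5. Slc25a24 was lost on leaving out any vehicle or 5 mg/kg array or 1 mg/kg replicate 2. Both comparisons share the vehicle arrays.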

How the data were processed

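Per the labels' protocols, total RNA from mouse whole blood was extracted with Qiazol and RNeasy, and biotinylated cRNA was made from it using an Affymetrix 3′ IVT kit. The authors deposited 1 intensity per probe set and array. Judged by their range, which includes values below 0, these intensities are linear, and the summarisation software and any scaling are not given in the sources used here. Array medians of the deposited intensities ran from 11.6 to 15.1 on the 5 vehicle arrays and from 3.61 to 25.4 on the treated ones. The lowest was that of 1 mg/kg replicate 1. Having 5 arrays per group limits the precision.

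The 64 control probe sets were dropped, values were quantile normalised over all 15 arrays, raised to a floor of 16 and put on the log2 scale. Probe sets annotated with 1 gene (34945 of 45101) were named from the platform annotation, which can be old, while 932 with several genes and 9160 with none listed were not named. The probe set of highest mean over 15 arrays stood for its gene.

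Genes were ranked by mean, and by SD where above the floor on all 5 vehicle arrays. The named genes were the first 30 of each rank and, per list or family, up to 5 by mean, up to 3 by SD and up to 4 at the floor, with members that went against their list. Further members, the genes that passed against a dose and the 2-level genes were named after their values were seen. The 34 lists held 544 entries, of which 480 matched, and there were 40 families defined by symbol. The members, lists and rules were chosen with earlier results of these data known. Group means of all 15 arrays were fitted in limma 3.58.1 under R 4.3.3 (two-sided, Benjamini-Hochberg over 12499 genes above the floor on at least 5 arrays), and the script was tested on simulated data. Promoter words were counted with Python 3.11.15 in RefSeq windows of 250 bases before each start. Alternatives changed the floor, the scaling, the choice of probe set, the filters, the prior and the arrays included.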

Additional observations from a re-analysis of the deposited data

Results flagged for a closer look

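Values that stood far from the other 4 vehicle arrays by Dixon's criterion were found in 9 of 97 series of 5 values tested (34 list means, the 30 brightest and 30 most variable genes and 3 array measures), where chance gives about 1 in 20. None was among the 30 brightest genes, and 7 were among the 30 most variable, which were ranked on the same arrays.

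The dendritic cell list mean was low on vehicle replicate 1 (4.92), and the T cell list mean was high on replicate 2 (6.88). Hbb-b2 (7.79) and Fgf23 (6.66) were low on replicate 1, and both were also low on 5 mg/kg replicate 4. Alb (6.59) and Plscr1 (5.30) were low on replicate 2. Serpind1 (4.41) and Mpv17l (4.04) were low and Sae1 (9.49) high on replicate 3, and the latter 2 followed the split that replicate 3 shared with 5 mg/kg replicate 3. The causes were not tested.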

How the results depend on the processing

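Under every alternative run, the median SD of 0.36 changed by less than the distance between the quartiles of SD over all genes. The count of 8706 genes above the floor on all vehicle arrays stayed within 1.5 times under each. The number at the floor on all of them was 7227 with a floor of 32 and 2885 with a floor of 8. Of the 50 brightest genes, 32 were kept when probe sets of a gene were averaged and 24 without suffixed probe sets. Of the 50 most variable, 21 were kept with a floor of 32, 30 with a floor of 8, 14 when 3 arrays above the floor sufficed, 9 by median absolute deviation and 20 when the 2 vehicle arrays with most 18S signal were left out. Leaving out 1 vehicle array kept 27 (without replicate 2) to 44. The variable genes also variable at 1 mg/kg, 28, became 14 without scaling, 12 without the 2 arrays of highest 18S signal, and 17 (without vehicle replicate 2) to 32 with 1 array left out. The single call against 1 mg/kg became 0 under array weights, a filter of 1 array, no scaling and without suffixed probe sets, and 0 to 2 with 1 array left out (0 on leaving out replicates 1, 3 or 4 of vehicle or 1, 4 or 5 of the 1 mg/kg group, 2 on leaving out that group's replicate 2). With a floor of 8 or without the 2 arrays of highest 18S signal 1 gene still passed, but it was lower in vehicle and was not Ear3. The 11 calls against 5 mg/kg became 65 under array weights, 22 with a filter of 1 array, 45 with a floor of 32, 30 with the mean of probe sets, 5 with median scaling, 1 without scaling, 3 without the 2 arrays of highest 18S signal, and 8 to 22 with 1 array left out (19 without 1 mg/kg replicate 1 and 22 without its replicate 5). With the replicate number as a block, 0 genes passed against 1 mg/kg and 9 against 5 mg/kg. Same-numbered arrays of different groups correlated in their deviations at −0.276 to 0.355 over 15 pairs (median −0.027). Differently numbered arrays did so at −0.373 to 0.387 over 60 pairs. The highest same-numbered value was that of vehicle replicate 3 and 5 mg/kg replicate 3. Whether samples of 1 number were handled together cannot be told from these values. The 26 genes that set replicate 3 and 5 mg/kg replicate 3 apart became 17 with a floor of 32 and 10 without scaling, alternatives chosen after seeing the data. Causes of these shifts were not tested. The following counts take each gene or list once per alternative. Means of the 30 brightest genes moved by at least their vehicle SD in 35 cases (20 with the mean of probe sets, 15 with median scaling) and not in 145. SDs of the 30 most variable genes changed by more than 1.5 times in 12 cases and not in 168. List means moved by at least their SD over the vehicle arrays in 2 cases and not in 66. The 5 arrays and a floor that is not a detection threshold limit what can be called absent, and 18S signal differed among the arrays.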

Other observations

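Kinds of gene not taken up above gave a few further values on the vehicle arrays. The histone gene H1f2 averaged 11.65 ± 0.75 (SD, n = 5), and 15 of 25 histone genes were above the floor on all 5 arrays. The splicing factor gene Srsf6 averaged 11.76 ± 0.16 and the zinc finger gene Zfp420 11.93 ± 0.16, while 98 of 329 Zfp genes were at the floor on all arrays. Ctsb, a lysosomal protease gene, led the cathepsins at 10.72 ± 0.24. Ctse averaged 9.55 ± 0.33. The integrin genes Itgb2 (9.46 ± 0.21) and Itga6 (9.14 ± 0.25) were steady, whereas the desmosome gene Dsp ran from 5.74 to 8.81 and the synaptic vesicle gene Syp from 7.01 to 10.78. Heat shock gene Hspa8 averaged 10.03 ± 0.11 and the inducible Hspa1a was at the floor on all arrays.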
